A study of Homo sapiens with 8 samples.

Results

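The genes described here are 10 secreted guidance cues and receptors: the netrin NTN4, the ligands SLIT2 and SLIT3 with their receptor ROBO1, the class 3 semaphorins SEMA3A, SEMA3C, SEMA3D and SEMA3F, and the neuropilins NRP1 and NRP2. They were taken by gene symbol from a table of read counts for 27696 genes, and all 10 were found. Expression was measured by RNA-Seq of poly(A)+ RNA from normal IMR90 cells, a strain of human embryonic lung fibroblasts, after 3 days of culture in medium that IMR90 ER:RAS fibroblasts had conditioned. ER:RAS is an oncogenic RAS that 4-hydroxytamoxifen (4-OHT) switches on, which drives the cells that carry it into senescence. The medium came from day 0, 4, 7 or 10 after 4-OHT was added, and the recipient cells are called D0, D4, D7 and D10 after that day. The recipients in all 4 groups were the same normal fibroblasts, so the groups differ in the medium alone as far as the labels say, and D0 is the control. Each group has 2 libraries from 2 independent experiments, which gives 8 libraries with totals between 11708193 and 13395912 counts.

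Guidance cues were first described in the developing nervous system, where they attract or repel growing axons, and the same molecules steer blood vessels, leukocytes and mesenchymal cells. Class 3 semaphorins are secreted and bind a complex of a neuropilin, which gives specificity, and a plexin, which carries the signal and generally collapses the cytoskeleton of the responding cell. Slits act through Robo receptors, and netrins through DCC, neogenin and UNC5 receptors. NTN4 differs from the other secreted netrins in that it is built more like a laminin beta chain and binds laminin networks in basement membranes.

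CPM here are counts per 1000000 reads after edgeR's TMM scaling, and values for D0, D4, D7 and D10 are given in the order experiment 1, experiment 2. Each day was compared with D0 by the quasi-likelihood test of edgeR, adjusted by the Benjamini-Hochberg method for 13798 genes, first by group alone and then with the experiment as a replicate block, since libraries of the same experiment deviated together. Of the 10 genes, 9 passed the filter on low counts. SLIT3 did not, with 13 reads in all 8 libraries together and at most 4 in any of them, and no fold change is given for it.

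A single library stood apart. D10 experiment 2 had 1295 CPM of COL1A1, a chain of the main fibrillar collagen of fibroblasts, where the other 7 libraries had between 8694 and 14499, and the other chain COL1A2 was at 2862 CPM against at least 10121. Its summed level of 12 fibroblast markers was 21263 CPM, while D10 experiment 1 at 48531 CPM lay within the D0 range of 46269 to 58116. The tests with the block are therefore also given without this library for the tested genes of the set and for some others. For PLXNC1, SEMA6A, VEGFC and DPYSL2 they are given only with all 8 libraries. The setting was chosen after the data were seen, and in it D10 is 1 library that is assumed to vary like the other groups.

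At D10, SEMA3A (2.53-fold) and SEMA3F (2.29-fold) were higher than at D0 and NTN4 was 2.12-fold lower, and the experiments had the same direction for each of these genes. By group alone in edgeR, 0 of the 9 genes passed an adjusted p of 0.05 at D4, D7 or D10, where 0%, 0% and 0.29% of all tested genes did so. With the replicate block 0 of the 9 passed at D4 and 0 at D7, against 0.275% and 1.25% of all tested genes. At D10 the block called 3 of the 9, SEMA3A and SEMA3F above D0 and NTN4 below it, against 4.99% of all tested genes (2.54% higher and 2.45% lower). DESeq2 was also fitted by group alone without the block, and with that same design its calls differed from those of edgeR. It called the same 3 genes at D10, where it called 2.83% of all genes, 0 at D4, where it called 0.348%, and NRP1 at D7, where it called 0.848%. Without D10 experiment 2 the block in edgeR called 4 of the 9 genes at D4 (SEMA3A, NRP1, NTN4 and NRP2), 3 at D7 (SEMA3A, NRP1 and NTN4) and 4 at D10 (SEMA3A, SEMA3F, NRP1 and NTN4), against 3.18%, 5.49% and 6.32% of all genes (at D10, 2.58% lower and 3.75% higher). At an unadjusted p under 0.05 in edgeR by group alone, 4 of the 9 genes passed at D4, 3 at D7 and 4 at D10, against 2.96%, 4.34% and 7.94% of all genes. The 3 comparisons share the D0 libraries, so they are not independent of each other.

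The promoters of NTN4 and SEMA3F are printed because these genes passed the test with the block and have an entry in the RefSeq promoter table, which holds 8 of the 10 genes, without SEMA3A and NRP1. Each line gives the 250 bases before the annotated start, 5′ to 3′ on the gene's own strand, from GRCh38.p14. NTN4 lies at chr12:95791156-95791405 on the minus strand and SEMA3F at chr3:50154808-50155057 on the plus strand. Capitals mark matches to TGGGAA, the core bound by RBPJ, the DNA-binding partner of Notch, and to the NF-kappaB motif, both searched on both strands.
NTN4: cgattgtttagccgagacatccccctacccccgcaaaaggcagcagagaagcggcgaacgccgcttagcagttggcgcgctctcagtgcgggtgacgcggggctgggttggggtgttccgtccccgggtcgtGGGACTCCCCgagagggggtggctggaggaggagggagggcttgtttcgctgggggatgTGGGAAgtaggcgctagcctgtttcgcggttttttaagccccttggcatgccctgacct
SEMA3F: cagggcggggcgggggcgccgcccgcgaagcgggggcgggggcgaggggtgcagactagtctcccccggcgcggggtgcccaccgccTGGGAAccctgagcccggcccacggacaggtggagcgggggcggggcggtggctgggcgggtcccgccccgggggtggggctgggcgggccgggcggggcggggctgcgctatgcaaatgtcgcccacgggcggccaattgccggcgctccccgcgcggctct
The NTN4 promoter holds 1 NF-kappaB match, which 5.21% of 35114 promoters of this length hold, and 1 TGGGAA, which 20.8% hold. SEMA3F has 1 TGGGAA and no NF-kappaB match. Its promoter is 82% G and C, at percentile 98.3 of all promoters, and holds 12 matches to the GC box GGGCGG, some of them sharing a base, where 42.6% of promoters hold at least 1. None of the 8 promoters has a match to AP-1 (TGANTCA, in 6.57% of promoters), TEAD (GGAATG, in 11.9%), the TATA box (TATAAA, in 10.7%) or the CArG box (in 1.16%). For the TATA box only TATAAA was searched, so related letters such as TATATAAG in the SLIT2 promoter were not counted. The SMAD box CAGAC, in 38.0% of promoters, is present in those of SLIT3, SEMA3C, SEMA3D and SEMA3F. At the other end of the range of base composition SEMA3C has 36.4% G and C, at percentile 7.21. A match describes the letters in this window and was not linked to binding.

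**Figure D1:**
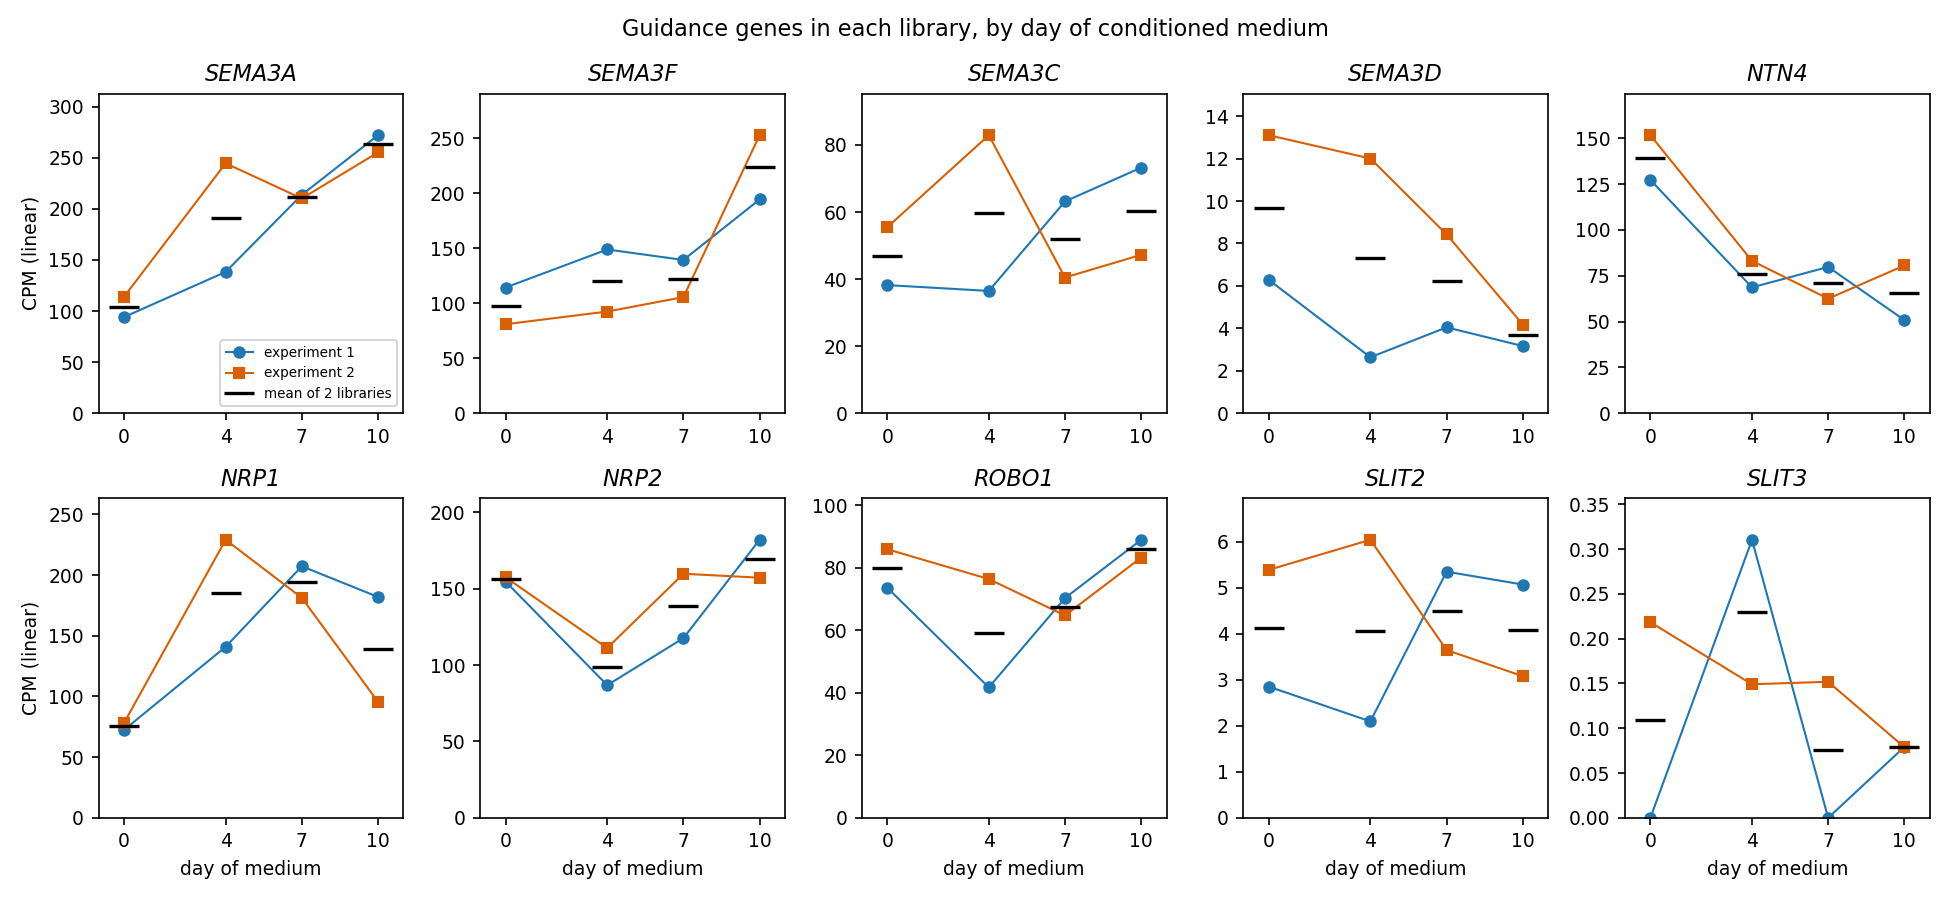
CPM of the 10 genes (linear axes starting at 0) against the day of the conditioned medium, with 1 line per experiment and a black bar for the mean of the 2 libraries. SEMA3A is above both D0 libraries on all 3 later days and NTN4 below them, while for SEMA3C and SLIT2 the change from D0 to D10 has opposite signs in the experiments.

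Among the ligands, SEMA3A had the largest change at D10 relative to its standard error. SEMA3A binds NRP1 with an A-type plexin, repels axons and restrains the migration of endothelial cells. Its gene lies at 7:83955777-84492724 on the minus strand (GRCh38, GENCODE 29). It had 94.1 and 114 CPM in D0, 138 and 245 in D4, 214 and 210 in D7, and 272 and 255 in D10. All 6 libraries from later media were above both D0 libraries, and the experiments were closest to each other at D7 and D10. The log2 change was 0.88 ± 0.30 (SE) at D4, 1.03 ± 0.30 at D7 and 1.34 ± 0.30 at D10. The value at D4 was 0.41 without D4 experiment 2 and 1.23 without D4 experiment 1. In edgeR the adjusted p at D10 was 0.128 by group alone and 0.0115 with the block, and in DESeq2 it was 0.00249. With the block and without D10 experiment 2 the log2 changes were 0.85, 1.04 and 1.57, with adjusted p of 0.0145, 0.00225 and 5.03e-04 in edgeR. As a slope over the 4 days SEMA3A increased by 0.13 log2 units per day, with an adjusted p of 0.0651 by group alone in edgeR, where 1.18% of all genes passed, and 0.0148 with the block, where 4.3% passed and, without D10 experiment 2, 5.8% (DESeq2, 9.05e-04, with 3.58% of all genes). Without D4 experiment 2, whose 245 CPM lies above the D7 values, the slope passed also by group alone, at 0.14 per day (edgeR, adjusted p = 0.0216).

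SEMA3F, which binds mainly NRP2 and is known for its antiangiogenic activity, had another time course. Its gene is at 3:50155045-50189075 on the plus strand. It had 114 and 80.9 CPM in D0, 149 and 92.4 in D4, 139 and 105 in D7, and 194 and 253 in D10. The D4 and D7 groups overlapped D0, with log2 changes of 0.31 ± 0.32 and 0.33 ± 0.32, and both D10 libraries lay above all 6 others. At D10 the log2 change was 1.20 ± 0.32, with an adjusted p in edgeR of 0.215 by group alone and 0.0216 with the block (DESeq2, 0.0261). The change was 0.77 in experiment 1 and 1.64 in experiment 2, and with the block and without D10 experiment 2 it was 0.75 and was still called (edgeR, adjusted p = 0.0149). Over the 4 days the slope was 0.11 per day, with an adjusted p of 0.148 by group alone and 0.0465 with the block in edgeR. An antisense gene, SEMA3F-AS1, overlaps 2.28% of the exon bases of SEMA3F, and whether counting used strand is not given in the sources used here.

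SEMA3C, a ligand of both neuropilins that is needed for the cardiac outflow tract, differed between the experiments in a direction that was not the same on all days. It had 38.2 and 55.5 CPM in D0, 36.5 and 82.9 in D4, 63.2 and 40.5 in D7, and 73.2 and 47.2 in D10. Experiment 2 was higher at D0 and D4 and experiment 1 at D7 and D10, and the groups overlapped D0 on every day. The log2 change at D10 was 0.94 in experiment 1 and -0.23 in experiment 2, and the fit gave 0.36 ± 0.43 with an adjusted p of 0.998 in edgeR.

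SEMA3D, another ligand of the neuropilins, was the weakest of the 4 semaphorins. It had 6.28 and 13.1 CPM in D0, 2.64 and 12 in D4, 4.05 and 8.43 in D7, and 3.17 and 4.18 in D10. Experiment 2 was higher in all 4 groups, by between 0.38 and 2.12 log2 units, and both D10 libraries were below both D0 libraries. Within an experiment the log2 change at D10 was -0.96 and -1.61. The fit gave -1.40 ± 0.71 at D10, with an adjusted p in edgeR of 0.774 by group alone and 0.0929 with the block, so SEMA3D passed neither test. With the block and without D10 experiment 2 the value was -0.80 (adjusted p = 0.315 in edgeR). These libraries held between 34 and 180 reads of SEMA3D, the fewest of the tested genes after SLIT2.

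NTN4 was the gene below D0 among those that passed the test with the block. Its gene is at 12:95657807-95791152 on the minus strand. It had 127 and 152 CPM in D0, 68.7 and 83.1 in D4, 79.8 and 62.5 in D7, and 50.8 and 80.6 in D10. All 6 later libraries were below both D0 libraries, and the values at D4, D7 and D10 overlapped each other. The log2 change was -0.88 ± 0.28 at D4, -0.97 ± 0.28 at D7 and -1.09 ± 0.28 at D10, so most of the difference from D0 was present with D4 medium. In edgeR the adjusted p at D10 was 0.194 by group alone and 0.0237 with the block (DESeq2, 0.0323). With the block and without D10 experiment 2 the log2 changes were -0.88, -0.96 and -1.42, with adjusted p of 0.00656, 0.00209 and 0.00110 in edgeR. The slope was -0.11 per day, with an adjusted p of 0.0968 by group alone and 0.0322 with the block in edgeR, and without D10 experiment 2 it was -0.14 and passed by group alone (edgeR, adjusted p = 0.0438).

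**Figure D2:**
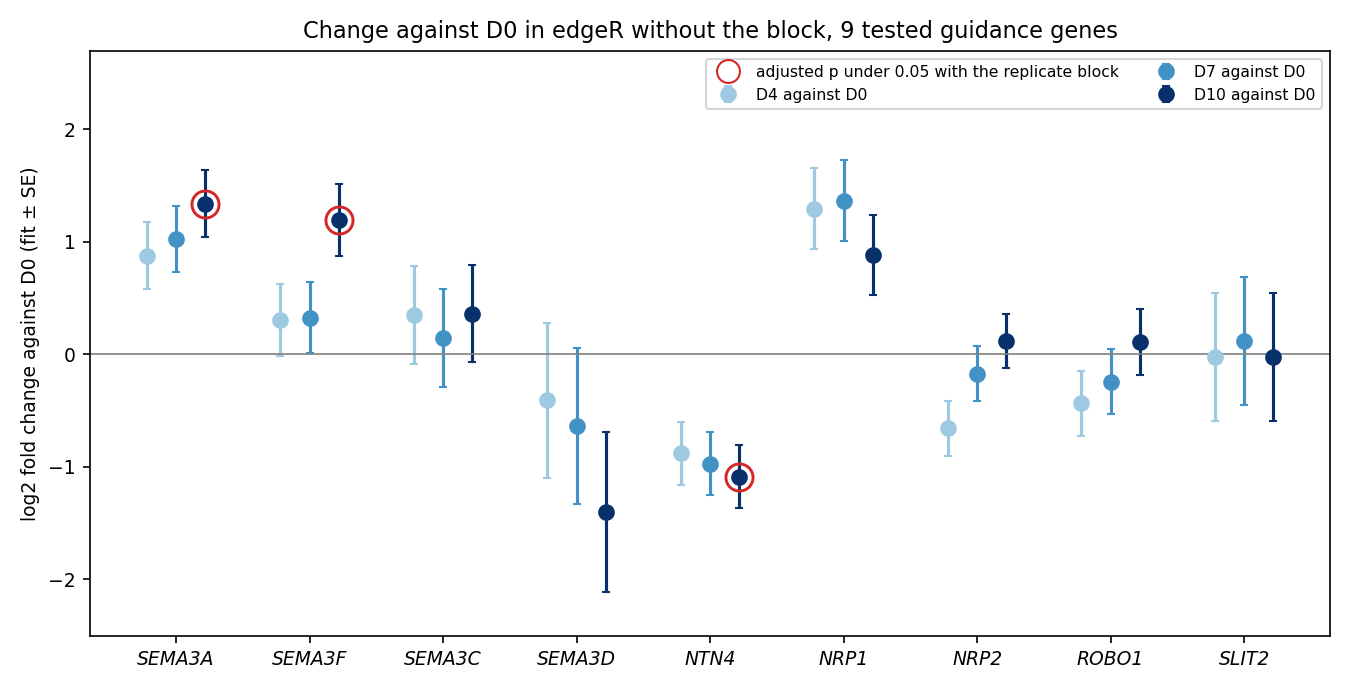
Log2 fold change against D0 of the 9 tested genes at D4, D7 and D10 (points, edgeR by group alone) with its standard error (bars), and red rings for an adjusted p under 0.05 with the replicate block. The rings mark SEMA3A at 1.34, SEMA3F at 1.20 and NTN4 at -1.09, all at D10.

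Among the receptors, NRP1 binds SEMA3A and the longer forms of VEGFA, and its gene is at 10:33177492-33336262 on the minus strand. It had 72.5 and 78.2 CPM in D0, 141 and 229 in D4, 207 and 181 in D7, and 182 and 95.6 in D10. All 6 later libraries were above both D0 libraries, the D10 library of experiment 2 by the least. The log2 change was 1.30 ± 0.36 at D4 and 1.37 ± 0.36 at D7, the largest of the 9 genes on those days, and 0.88 ± 0.36 at D10. With all 8 libraries none of them passed in edgeR, with adjusted p of 1, 0.529 and 0.556 by group alone and 0.180, 0.107 and 0.188 with the block, while DESeq2 gave 0.0389 at D7. Within experiment 1 the change at D10 was 1.33 and within experiment 2 it was 0.29. Without D10 experiment 1 the fitted change at D10 was 0.36. The slope of NRP1 over the 4 days was 0.089 per day and did not pass in edgeR with all 8 libraries. Its adjusted p was 0.749 by group alone and 0.437 with the block. With the block and without D10 experiment 2, NRP1 was called on all 3 days, at 1.28, 1.38 and 1.38 with adjusted p of 0.00118, 3.28e-04 and 0.00167 in edgeR. A gene on the opposite strand, AL121748.2, overlaps 4.87% of the exon bases of NRP1.

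NRP2, which binds SEMA3F and VEGFC, was on the other side of D0 from NRP1 at D4. It had 155 and 157 CPM in D0, 86.8 and 111 in D4, 118 and 160 in D7, and 182 and 157 in D10. Both D4 libraries were below both D0 libraries, and the D7 and D10 groups overlapped D0. The log2 change at D4 was -0.66 ± 0.24, with an unadjusted p of 0.0280 and an adjusted p of 1 by group alone and 0.252 with the block in edgeR. With the block and without D10 experiment 2 it was -0.67 and was called (edgeR, adjusted p = 0.0169). At D10 it was 0.12 ± 0.24. Its gene is at 2:205681990-205798133 on the plus strand.

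Because both neuropilins were counted in the same libraries, their ratio does not depend on the scaling of the libraries. The ratio of NRP1 to NRP2 counts was 0.469 and 0.497 at D0. It was 1.62 and 2.06 in D4, 1.76 and 1.13 in D7, and 1.00 and 0.608 in D10. Per base of exon, the neuropilin with more reads at D0 was NRP2, at a ratio of 0.565 and 0.599, and at D4 and D7 it was NRP1 in all 4 libraries, at ratios between 1.37 and 2.49. At D10 the experiments differed, at 1.21 and 0.733. The ratio of SEMA3A to NTN4 counts also differed from D0 in every later library, going from 0.739 and 0.751 at D0 to 2.01 and 2.94 in D4, 2.68 and 3.36 in D7, and 5.35 and 3.17 in D10. SEMA3A to ROBO1 counts stood at 1.28 and 1.33 at D0 and between 3.04 and 3.31 in all 6 later libraries. These ratios were chosen with the values known, are given without a test, and their 95% intervals cover counting error only.

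**Figure D3:**
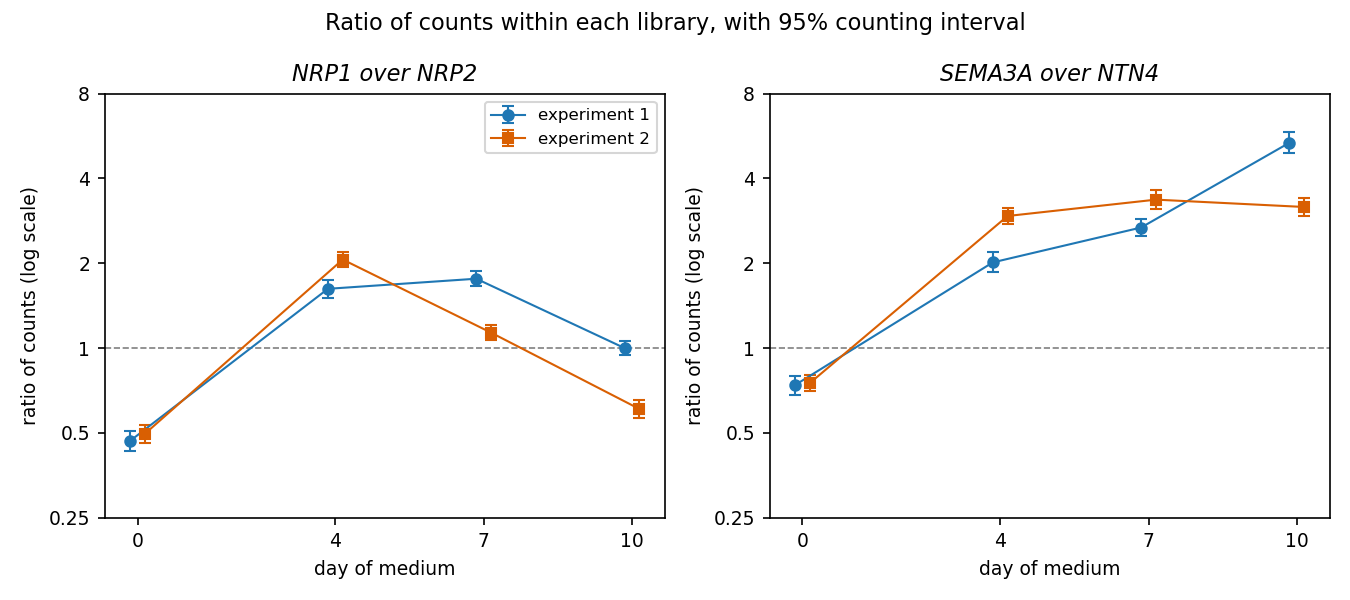
Ratio of NRP1 to NRP2 counts (left) and of SEMA3A to NTN4 counts (right) in each library on a log axis, against the day of the medium, with 95% counting intervals as bars and 1 line per experiment. NRP1 over NRP2 is below 1 at D0 (0.469 and 0.497) and above 1 in the 4 libraries of D4 and D7, and SEMA3A over NTN4 is below 1 at D0 and above 2 later.

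ROBO1, at D0 the most abundant of the Robo receptors per kb of exon, passed no test. Its gene is at 3:78597240-79767815 on the minus strand. It had 73.7 and 86.0 CPM in D0, 41.7 and 76.4 in D4, 70.3 and 64.8 in D7, and 89.0 and 83.3 in D10. Both D7 libraries were below both D0 libraries, and the D4 and D10 groups overlapped D0. Log2 changes were -0.43 ± 0.29, -0.24 ± 0.29 and 0.11 ± 0.29, and the lowest adjusted p in any setting was 0.290. Leaving out 1 D4 library gave -0.93 (without experiment 2) or -0.07 (without experiment 1) at D4, and leaving out 1 D0 library gave 0.0029 or 0.22 at D10.

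SLIT2, a secreted Slit that repels axons and leukocytes through Robo receptors, was weakly expressed. It had 2.85 and 5.39 CPM in D0, 2.10 and 6.04 in D4, 5.35 and 3.65 in D7, and 5.07 and 3.08 in D10, from 27 to 81 reads. The groups overlapped on every day, and the log2 change at D10 was 0.80 in experiment 1 and -0.78 in experiment 2. The fitted values were -0.02 ± 0.57 at D4, 0.12 ± 0.57 at D7 and -0.02 ± 0.57 at D10, and their errors leave room for a change in either direction. SLIT3, whose roles overlap with those of SLIT2, had 0 and 3 reads in D0, 4 and 2 in D4, 0 and 2 in D7, and 1 and 1 in D10. A difference in SLIT3 was not detectable at this depth.

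Counted against both D0 libraries, SEMA3A and NRP1 lay above and NTN4 and NRP2 below at D4, where 9.73% of all tested genes lay above and 12.6% below. At D7 SEMA3A and NRP1 lay above and NTN4 and ROBO1 below, against 13.7% and 15.2% of all genes. SEMA3A, SEMA3F and NRP1 were above and NTN4 and SEMA3D below at D10, against 15% and 16%. Over the 9 tested genes the median log2 change was -0.02 at D4, 0.12 at D7 and 0.12 at D10, where the median over all tested genes was 0.01, 0.00 and 0.00. Genes of this set therefore lay on both sides of D0 on each day.

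Levels of different genes were compared as CPM per kb of exon. At D0 the order was NTN4 with 33.5 ± 4.14 (SD, n = 2), SEMA3F with 20.2 ± 4.89, NRP2 with 11.2 ± 0.145, SEMA3A with 11.1 ± 1.50, SEMA3C with 7.47 ± 1.95, ROBO1 with 7.34 ± 0.800 and NRP1 with 6.54 ± 0.354. SEMA3D with 1.20 ± 0.598 and SLIT2 with 0.424 ± 0.185 were well below. NRP2 and SEMA3A, and also SEMA3C, ROBO1 and NRP1, did not differ beyond their spread. NTN4 stood at percentile 91.4 of 13771 tested genes and SEMA3F at 85.2, while SEMA3D stood at 24.9 and SLIT2 at 10.8. At D10 SEMA3F came first with 46.3 ± 8.55, then SEMA3A with 28.1 ± 1.27 and NTN4 with 15.8 ± 5.06. NRP2 with 12.2 ± 1.26, NRP1 with 12 ± 5.30 and SEMA3C with 9.61 ± 2.93 did not differ from their neighbours beyond the spread.

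The class 3 semaphorins together, with SEMA3B, SEMA3E and SEMA3G added to the 4 described above, summed to 47.1 and 47.6 CPM per kb at D0. The sum was 56.6 and 64.7 in D4, 66.1 and 57.4 in D7, and 84.9 and 96.9 in D10, so every later library was above both D0 libraries and both D10 libraries above all others. SEMA3F and SEMA3A made up most of it. SEMA3A held 21.3% and 25.6% of the sum at D0 and 34.2% and 28.1% at D10, and SEMA3F 50.3% and 35.2% at D0 and 47.4% and 54.0% at D10. The share of SEMA3B, a neighbour of SEMA3F on chromosome 3 at a distance of 78483 bases, was 13.6% and 17.2% at D0 and 4.20% and 9.50% at D10, with a log2 change of -0.19 that did not pass the test (edgeR, adjusted p = 0.998), and of -0.87 with the block and without D10 experiment 2, which did (adjusted p = 0.0288). SEMA3E and SEMA3G had at most 5 reads in any library. SEMA3A, SEMA3C, SEMA3D and SEMA3E lie together on chromosome 7, with 0.503 Mb between SEMA3A and SEMA3D and 3.03 Mb between SEMA3A and SEMA3C, and their time courses differed as given above.

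**Figure D4:**
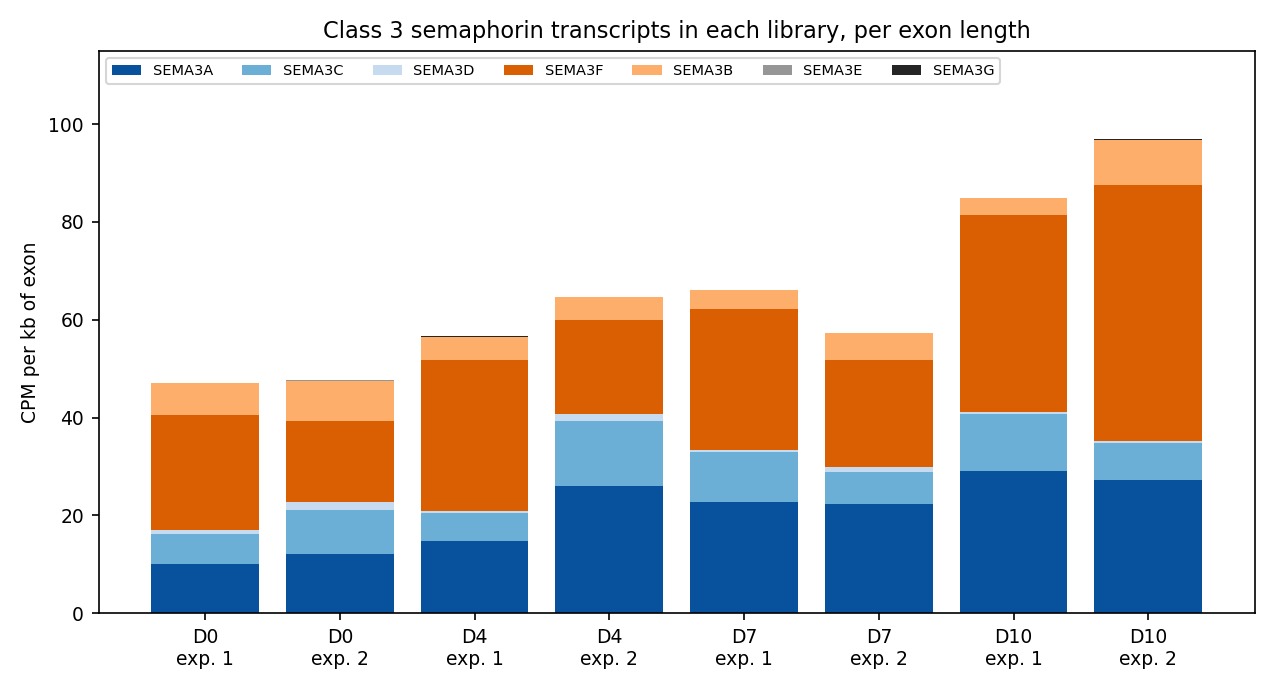
Summed level of the 7 class 3 semaphorins in each of the 8 libraries (bars from 0, in CPM per kb of exon), split by gene. The bars stand at 47.1 and 47.6 at D0 and at 84.9 and 96.9 at D10, and SEMA3F (orange) and SEMA3A (dark blue) account for most of each.

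The list of other netrins and netrin receptors had 8 tested genes, among them the laminin chain LAMC1, which NTN4 binds, and ITGA6, a subunit of laminin-binding integrins. With all 8 libraries 0 of the 8 were called on any day or in the slope, by group alone or with the block in edgeR, where at most 1.18% and 4.99% of all genes were, and at most 1 had an unadjusted p under 0.05 by group alone. With the block and without D10 experiment 2, the log2 changes of ITGA6 were 1.31, 1.57 and 1.30 on the 3 days. Those of UNC5B were -0.81 and -0.78 at D4 and D7. Whether these passed depended on whether D10 experiment 2 was included. Neogenin (NEO1), a netrin receptor, had 365 ± 70.1 CPM at D0 and 310 ± 64.4 at D10 (SD, n = 2), and UNC5B had 15.3 ± 7.13 and 25.5 ± 23.5. With all 8 libraries the list of other Slit and Robo genes and their partners also gave 0 calls among 10 tested in edgeR. This held by group alone and with the block, against the same shares of all genes. At most 1 had an unadjusted p under 0.05 by group alone. The largest log2 change of this list at D7 was 1.48 for ROBO4 by group alone, from 11 and 13 reads in D0 and 38 and 31 in D7. Whether ROBO4 passed at D7 with the block depended on whether D10 experiment 2 was included. The list held ROBO2 at 18.4 ± 1.48 and 18.8 ± 10.9 CPM and ROBO3 at 26.8 ± 10.3 and 35.2 ± 18.8. Among 8 tested plexins, the signalling receptors of the semaphorins, PLXNA1 had 315 ± 46.8 and 222 ± 86.9 CPM, PLXNA3 207 ± 35.6 and 169 ± 74.5, and PLXND1, a receptor for SEMA3C, 144 ± 24.0 and 145 ± 37.5, and none of these passed. PLXNC1, the receptor of SEMA7A and the only plexin called, had 572 and 1057 reads in D0, 107 and 270 in D4, 163 and 219 in D7, and 161 and 237 in D10. Its log2 change was -2.13 at D4, -2.10 at D7 and -1.99 at D10. The block in edgeR called PLXNC1 on all 3 days (adjusted p of 0.0136, 0.00618 and 0.00187). On these days it called 0.275%, 1.25% and 4.99% of all tested genes. By group alone in edgeR PLXNC1 was called on none of them (0.757, 0.330 and 0.131).

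Among 11 tested semaphorins of other classes, SEMA6D, a transmembrane semaphorin that signals through PLXNA1, was the gene called at D10 by group alone in edgeR. That test called 0.29% of all tested genes at D10. It had 227 and 287 reads in D0, 315 and 626 in D4, 624 and 650 in D7, and 1027 and 1375 in D10, so no later library reached down to D0. The log2 change at D10 was 2.25, with an adjusted p in edgeR of 0.0480 by group alone and 0.00117 with the block, and its slope of 0.22 per day had 0.00735 and 7.32e-04. Without D10 experiment 2 the block gave 2.22 at D10 (adjusted p = 5.54e-05 in edgeR). SEMA6A, a related transmembrane semaphorin, was lower at D10, with 1085 and 1190 reads at D0 and 576 and 182 at D10. The 182 reads were in D10 experiment 2, whose collagen counts stood apart. The log2 change of SEMA6A was -1.57, with an adjusted p of 0.296 by group alone and 0.0367 with the block in edgeR. At D10 the block called 2.54% of all tested genes higher and 2.45% lower. The median log2 change at D10 over these 11 genes was -0.13.

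**Figure D5:**
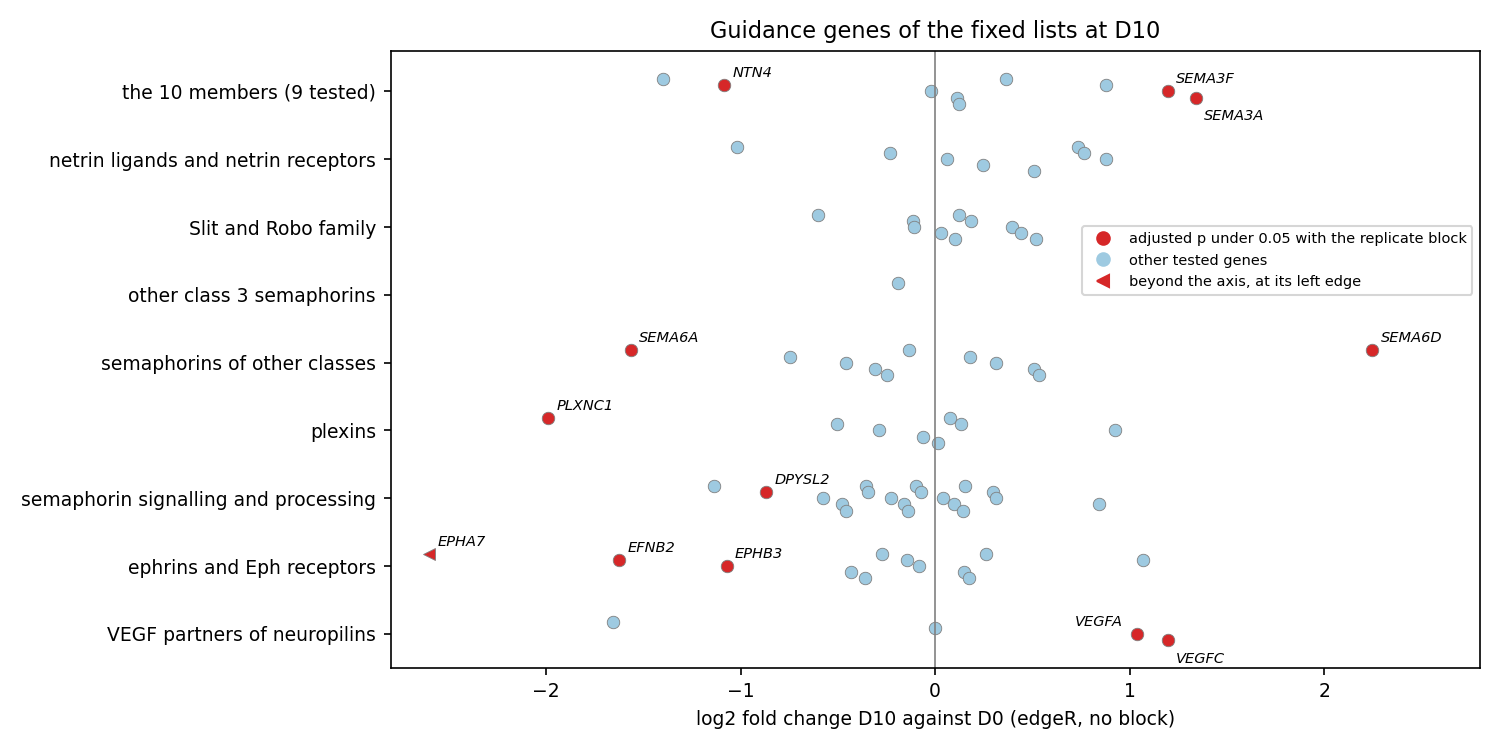
Log2 fold change at D10 against D0 (edgeR by group alone) of the tested guidance genes, 1 row per gene list and 1 point per gene, with red for an adjusted p under 0.05 with the replicate block. SEMA6D (2.25) and PLXNC1 (-1.99) lie further from 0 than SEMA3A (1.34) and NTN4 (-1.09), and EPHA7, with 0 reads at D10, is drawn at the left edge.

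Over the 8 libraries, with log2 CPM centred within each experiment, all pairs of the 9 tested genes were compared, and only the extremes are given. The highest values of Pearson's r were 0.90 for SLIT2 with SEMA3C, 0.77 for ROBO1 with NRP2 and 0.76 for SEMA3A with NRP1. The lowest were -0.84 for NTN4 with SEMA3A and -0.91 for SEMA3D with SEMA3F. For SLIT2 and SEMA3C the log2 change from D0 to D10 had opposite signs in the experiments (0.80 and -0.78, and 0.94 and -0.23). Their r is therefore no sign of a common direction of change with the medium. The tested gene most like NTN4 by this measure was TTPAL (r = 0.991), that most like SEMA3A was the noncoding AC097451.1 (r = 0.993, at a mean of 0.763 CPM), and that most like SEMA3F was BTG1 (r = 0.998). For NRP1 it was DCBLD2 (r = 0.992), for ROBO1 DHFR2 (r = 0.992), for SLIT2 PLAA (r = 0.991), for SEMA3C TROVE2 (r = 0.974) and for SEMA3D ZNF233 (r = 0.991). Each is the highest over all tested genes from only 8 points, which share media and depth, and between 23 genes (for SEMA3C) and 330 genes (for SEMA3F) had an r over 0.9 with a given gene.

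The cells carried the markers of fibroblasts in every library. All 12 fibroblast markers were tested, led by FN1. DCN and PDGFRB were lower at D10 with the block in edgeR (adjusted p of 0.0362 and 0.0181) and were not called by group alone (0.484 and 0.151). Endothelial markers summed to between 43.3 and 123 CPM over all libraries, led by TEK, with KDR, ERG and CLDN5 at no more than 3 reads in any library. Epithelial markers summed to 56.3 to 79.9 CPM at D0 and 45.9 to 49.7 at D10, led by KRT18, with CDH1 and SFTPC at no more than 3 reads. Leukocyte markers summed to at most 4.11 CPM, with PTPRC and ITGAM at no more than 3 reads, and neuron and glia markers to at most 12.2, with RBFOX3, GFAP and ELAVL3 at no more than 3 reads. KRT18 and TUBB3 were lower at D10 with the block (edgeR, adjusted p of 0.0220 and 0.0474) and were not called by group alone (0.321 and 0.427). Without the D10 library of low collagen the block still called SEMA3A, SEMA3F, NTN4, DCN (0.00582), PDGFRB (0.00503) and KRT18 (0.0341) at D10 but not TUBB3 (adjusted p of 0.102). The part of DCN and PDGFRB, which were also lower in this setting, in the results for SEMA3A, SEMA3F and NTN4 was not tested. In these cultures fewer expressing cells and less RNA per cell cannot be told apart.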

How the data were processed

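RNA-Seq libraries of 4 groups, with 2 libraries each, were compared. The authors deposited unnormalized read counts for 27696 genes and, beside them, RPM values, which equal the deposited counts per 1000000 reads of the library within 0.006 for all 221568 values and were not used further. The submitters' processing notes name STAR 2.5, DESeq2 and the build GRCh38. Whether counting used strand is not given in the sources used here. Positions and exon lengths come from GENCODE 29, which holds 27588 of the gene identifiers.

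Genes were filtered with edgeR's filterByExpr by group (13798 kept), scaled with TMM and tested with edgeR 4.0.16 (glmQLFit and glmQLFTest, R 4.3.3) in one fit of all 8 libraries, with Benjamini-Hochberg adjustment and calls at 0.05, for each day against D0 and for a slope over the day of the medium (0, 4, 7 and 10). DESeq2 1.42.0, fitted without the replicate block, and the settings listed in the closing section were alternatives. The methods were also run on counts simulated with a replicate effect and without a library that stands apart. No result of that run is used here. Standard errors of the edgeR log2 changes were derived from the test, as the absolute log2 change divided by the square root of its F statistic. Log2 CPM used a prior count of 2. Replicate numbers mark 2 independent experiments and were taken as pairs. For each of the 6 pairs of groups, the deviations of libraries with one number had a Pearson's r of at least 0.418 and at most 0.722, taken over genes, which are not independent replicates.

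All genes of the set were named in every comparison, and of the other guidance lists those called at D10, at most 3 per direction. The members, lists, motifs and tests were chosen with earlier results of these data known. Promoters come from a RefSeq table for GRCh38.p14. Counting intervals of ratios are at 95% and cover counting error only. Some values of single genes are not reported here.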

Additional observations from a re-analysis of the deposited data

How the results depend on the processing

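By group alone edgeR called 0 genes at D4, 0 at D7, 40 at D10 and 163 in the slope. The replicate block gave 38, 172, 688 and 593, and DESeq2 48, 117, 390 and 494. The replicate block without D10 experiment 2, a setting chosen after the data were seen, gave 451, 778, 896 and 822. Without a filter on low counts edgeR called 21, 93 and 371 genes at D4, D7 and D10. At D10, library totals alone gave 25, at least 10 counts in every library 20 and the compared groups only 0. Other settings moved these counts by less than 1.5 times, and the slope could not be fitted to compared groups only. Leaving out 1 library gave between 0 and 155 genes at D10 and between 36 and 155 in the slope. At D10 it was 0 without either D0 library, 15 without either D4 library, 14 without either D7 library, 155 without D10 experiment 1 and 11 without D10 experiment 2, and in the slope it was 36 and 49 without D0 experiments 1 and 2 and 81 and 92 without D10 experiments 1 and 2. Where 1 library is left, it is assumed to vary like the other groups.

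SEMA3A at D10 was also called by edgeR without a filter (adjusted p = 0.0194), at 0.0115 with the replicate block and at 0.00249 in DESeq2. Over all settings its adjusted p at D10 ran from 5.03e-04 to 0.652, that of NTN4 from 0.00110 to 0.775 and that of SEMA3F from 0.0149 to 0.904, and the direction of each was the same in 16 of 16 settings. In the slope DESeq2 gave an adjusted p of 9.05e-04 for SEMA3A, 0.0182 for NTN4 and 0.0360 for SEMA3F. Besides the calls printed above, the replicate block changed no other call among the 9 tested genes of the set.

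Signs changed for values that passed no test. SLIT2 at D10 was 0.025 with the replicate block and 0.63 with the block and without D10 experiment 2. When 1 library was left out, SLIT2 ran from -0.97 to 0.54 at D4, from -0.26 to 0.66 at D7, from -0.41 to 0.51 at D10 and from -0.029 to 0.041 per day, SEMA3C from -0.36 to 0.82 at D4 and from -0.21 to 0.44 at D7, SEMA3D from -1.87 to 0.30 and SEMA3F from -0.080 to 0.61 at D4, NRP2 from -0.41 to 0.038 at D7 and from -0.00011 to 0.036 per day, and ROBO1 from -0.0024 to 0.034 per day. The cause was not tested. With 2 libraries per group, changes as small as those of SLIT2 or SEMA3C cannot be told from the spread between experiments.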

Other observations

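Other guidance families held calls that the comparisons above do not cover. Among 12 tested ephrins and Eph receptors, 3 were lower at D10 with the replicate block and 0 higher, where 2.45% and 2.54% of all tested genes were. Without D10 experiment 2, whose collagen counts stood apart, the block still called EFNB2 and EPHA7 but not EPHB3 (edgeR, adjusted p = 0.0543). EFNB2, a transmembrane ephrin that marks arterial endothelium and signals to EphB receptors, had 348 and 523 reads in D0, 224 and 343 in D4, 268 and 230 in D7, and 160 and 116 in D10. Its log2 change at D10 was -1.62 (edgeR, adjusted p = 0.0779 by group alone and 0.00937 with the block), its slope of -0.15 per day passed by group alone (adjusted p = 0.0295), and AL138689.2 on the opposite strand overlaps 26.2% of its exon bases. EPHB3, a receptor for such ephrins, had 212 and 156 reads at D0 and 108 and 67 at D10, a log2 change of -1.07 (edgeR, adjusted p = 0.332 and 0.0278). EPHA7 had 40 and 25 reads in D0, 1 and 3 in D4, 3 and 3 in D7, and 0 and 0 in D10 (edgeR, adjusted p = 0.0504 and 0.00580), and since D10 is at 0 no fold is given.

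Among 4 tested VEGF ligands and receptors that bind or share the neuropilins, VEGFC and VEGFA were higher at D10 with the block, where 2.54% of all genes were. FLT1, a VEGF receptor of the same list, had a log2 change of -1.66 and did not pass (edgeR, adjusted p = 0.597 by group alone and 0.175 with the block). VEGFC, a ligand of NRP2 known for lymphatic growth, had 707 and 739 reads in D0, 1220 and 1165 in D4, 1609 and 1036 in D7, and 1770 and 1509 in D10. Its log2 change at D10 was 1.20 (edgeR, adjusted p = 0.118 by group alone and 0.00512 with the block). All 6 later libraries were above both D0 libraries. VEGFA had 749 and 1340 reads at D0 and 1228 and 2940 at D10, so its groups overlapped, with a log2 change of 1.04 (edgeR, adjusted p = 0.652 and 0.0213), and of 0.64 with the block and without D10 experiment 2 (adjusted p = 0.0365). Of 19 tested genes of semaphorin signalling and processing, DPYSL2, a cytoplasmic mediator of semaphorin signals, was lower at D10 with the block. It had 2121 and 2023 reads at D0 and 1413 and 835 at D10, the 835 in D10 experiment 2. Its log2 change was -0.87 (edgeR, adjusted p = 0.456 by group alone and 0.0164 with the block). DPYSL2 was 1 of 19 tested, where the block called 4.99% of all genes.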
